A study of Mus musculus with 4 samples.

Results

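The HoxA cluster genes were followed in mouse embryonic fibroblasts (MEF) that lacked podoplanin and in wild-type MEF. The members were the 10 HoxA genes measured by the array, each read by its brightest probe set (a group of oligonucleotides that report on 1 transcript), out of 19751 genes tested. Each of the 10 had a single probe set with its own gene symbol, and all 10 probe sets were described as lying on mouse chromosome 6, band B3. In the order in which the genes lie along the chromosome, the members were Hoxa2, Hoxa3, Hoxa4, Hoxa5, Hoxa6, Hoxa7, Hoxa9, Hoxa10, Hoxa11 and Hoxa13.

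The tested cells were Pdpn KO MEF, from embryos deficient in podoplanin (Pdpn), a mucin-type membrane glycoprotein of fibroblasts, epithelia and lymphatic vessels, and they were set against WT MEF. Both genotypes were of strain C57BL6/J, with 2 arrays each, named here by the replicate numbers of the labels. All cultures came from embryos taken between embryonic day 9.5 and 13.5, were grown for 7 to 10 days with 10% fetal calf serum, and were depleted of endothelial and blood cells through CD31 and CD45. Not given in the sources used here were the stage of each embryo, the litter, the body parts that went into each culture and the part of Pdpn that was deleted. No source says what separates the replicates beyond calling them biological, so the p-values cover only how far these 4 arrays spread, which may be partly technical.

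Hox genes encode homeodomain transcription factors that give cells of the embryo their position along the head-to-tail axis and along the limb. They lie in clusters, and their order on the chromosome follows the order of their expression domains: genes at the Hoxa2 end are active towards the head, and genes at the Hoxa13 end towards the tail and the tips of the limbs. Fibroblasts taken into culture keep much of the Hox pattern of the site they came from.

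Values below are the deposited array intensities, already background-corrected and quantile-normalised by the method RMA, in arbitrary linear units. Fold changes are differences of log2 intensity, and genotypes were compared with limma, a linear model that shares the spread across genes, with p-values adjusted over all 19751 genes and a threshold of 0.05. The genotype and sex labels were checked first. Pdpn itself read 201.0 in Pdpn KO replicate 2 and 178.7 in Pdpn KO replicate 1, against 3106 in WT replicate 2 and 4486 in WT replicate 1 (log2 fold change -4.30 ± 0.19, SE; limma adjusted p = 0.00501). All 4 arrays were labelled female, but Xist, the RNA that silences an X chromosome in female cells, read 1831 in Pdpn KO replicate 2 and 48.9 in Pdpn KO replicate 1, against 57.4 in WT replicate 2 and 48.6 in WT replicate 1. Eif2s3y, on the Y chromosome, read 35.1 in Pdpn KO replicate 2 and 1673 in Pdpn KO replicate 1, against 1474 in WT replicate 2 and 1534 in WT replicate 1. The other measured Y-linked genes, Kdm5d and Uty, were likewise low only in Pdpn KO replicate 2 among the 4 arrays. The labelled sex was therefore not that of the sex-linked genes in 3 of the 4 arrays, and each result on the members is given with each Pdpn KO array alone as well. Of 13 fibroblast markers, 12 read above the array median on every array, the exception being Lum, and their summed intensity was 70946 and 66043 in Pdpn KO, against 71574 and 63806 in WT.

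The starts of 4 members are printed because these genes carried the largest differences between the Pdpn KO arrays in either direction or held a motif of interest. The sequences are the 250 bases before the RefSeq start on GRCm38.p6, written 5′ to 3′ on the minus strand, which all HoxA genes use: Hoxa2 at chr6:52164832-52165081, Hoxa5 at chr6:52204588-52204837, Hoxa7 at chr6:52218574-52218823 and Hoxa11 at chr6:52245811-52246060. Capitals mark matches, on either strand, to TGACAG, the core bound by the MEIS and PKNOX cofactors of HOX proteins, to AGGTCA, the half-site of nuclear receptors such as those for retinoic acid, or to TTTATG, a core of caudal and posterior HOX proteins.
Hoxa2: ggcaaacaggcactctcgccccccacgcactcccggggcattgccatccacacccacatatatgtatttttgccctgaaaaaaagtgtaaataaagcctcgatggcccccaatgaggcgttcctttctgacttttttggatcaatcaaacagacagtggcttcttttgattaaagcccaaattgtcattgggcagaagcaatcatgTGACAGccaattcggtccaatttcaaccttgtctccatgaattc
Hoxa5: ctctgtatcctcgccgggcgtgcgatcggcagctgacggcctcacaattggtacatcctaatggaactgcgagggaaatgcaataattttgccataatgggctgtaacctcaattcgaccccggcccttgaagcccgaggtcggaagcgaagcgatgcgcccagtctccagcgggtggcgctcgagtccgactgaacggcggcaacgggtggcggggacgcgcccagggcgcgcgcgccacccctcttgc
Hoxa7: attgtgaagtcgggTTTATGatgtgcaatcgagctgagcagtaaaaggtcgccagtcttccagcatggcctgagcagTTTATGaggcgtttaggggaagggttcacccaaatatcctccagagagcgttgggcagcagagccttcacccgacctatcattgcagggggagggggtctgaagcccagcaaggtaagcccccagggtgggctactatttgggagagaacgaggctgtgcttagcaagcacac
Hoxa11: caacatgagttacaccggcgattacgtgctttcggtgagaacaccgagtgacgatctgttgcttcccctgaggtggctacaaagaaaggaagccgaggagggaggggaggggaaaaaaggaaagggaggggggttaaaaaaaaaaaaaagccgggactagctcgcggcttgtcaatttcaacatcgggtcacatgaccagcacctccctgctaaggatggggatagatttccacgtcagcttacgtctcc

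Promoters were listed for 9 of the 10 members, with 2 starts for Hoxa10 and 1 for each of the others. A match to TGACAG stood in the promoters of Hoxa2 and Hoxa3, 2 of these 9 members, against 15.9% of all 32851 mouse promoters of the same length. With so few members, such counts cannot be told from the share of all promoters. The window listed for Hoxa3, chr6:52213068-52213317, lies between those of Hoxa6 and Hoxa7, out of cluster order, and is not printed. TTTATG matched 2 times before Hoxa7, against 10.8% of all promoters with at least 1 match, and AGGTCA (14% of all promoters) was not in the letters of these windows. No match overlapped another. The printed windows differed in CpG content: Hoxa5 held 28 CpG dinucleotides and Hoxa11 held 13, while Hoxa7 held 7 and Hoxa2 held 6, with a median of 6 over all promoters.

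Each gene was compared with itself between arrays, and the members are called head-end (Hoxa2 to Hoxa7) and tail-end (Hoxa9 to Hoxa13). Between the Pdpn KO arrays, Hoxa2, Hoxa3, Hoxa5, Hoxa6 and Hoxa7 were all at least 1.5-fold lower in replicate 2 than in replicate 1, and Hoxa10, Hoxa11 and Hoxa13 at least 1.5-fold higher. Hoxa4 and Hoxa9 read nearly the same on both arrays. Pdpn KO replicate 1 read close to the WT arrays for most members. With 1 array on each side, these differences between arrays have no test. In cultured cells read in bulk, fewer cells of a kind and less RNA per cell cannot be told apart.

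**Figure D1:**
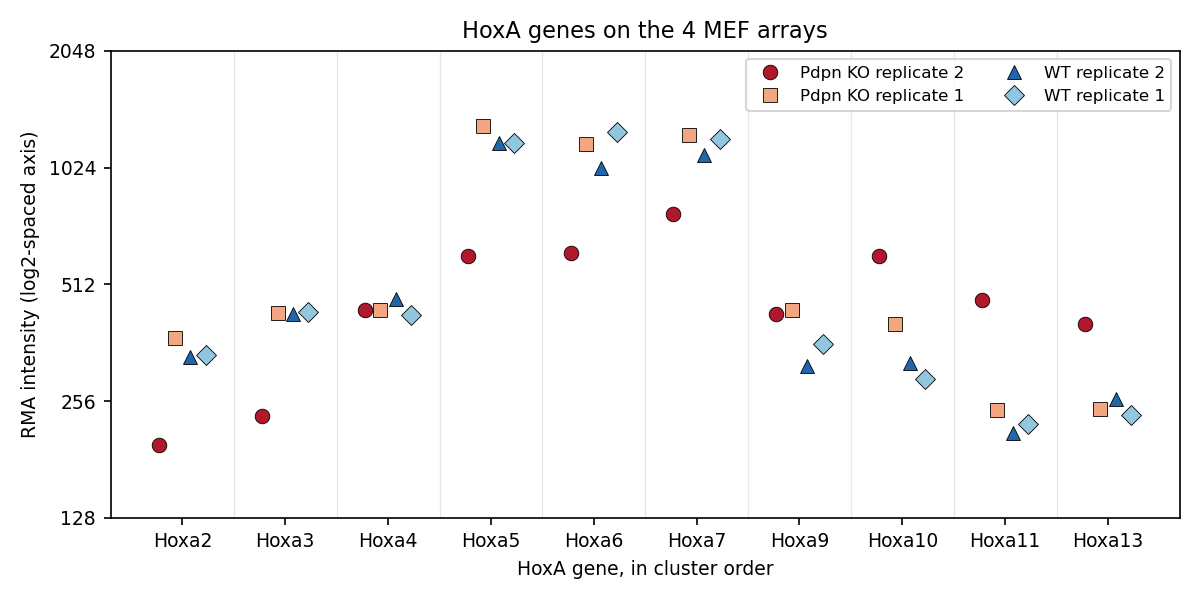
RMA intensity (log2-spaced axis) of each HoxA gene in cluster order, with 1 point per array: Pdpn KO replicate 2, Pdpn KO replicate 1, WT replicate 2 and WT replicate 1. Pdpn KO replicate 2 lies lowest of the 4 arrays for Hoxa2, Hoxa3, Hoxa5, Hoxa6 and Hoxa7 and highest for Hoxa10, Hoxa11 and Hoxa13. Heights of different genes are not comparable, since each has its own probes.

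Hoxa2, which patterns the hindbrain and the second pharyngeal arch, read 197.6 in Pdpn KO replicate 2 and 372.8 in Pdpn KO replicate 1, against 332.5 in WT replicate 2 and 336.1 in WT replicate 1. Hoxa3, needed for the thymus and parathyroid, read 234.6 in Pdpn KO replicate 2 and 431.1 in Pdpn KO replicate 1, against 430.3 in WT replicate 2 and 433.4 in WT replicate 1. For both genes, Pdpn KO replicate 2 was the lowest array, well apart from the other 3, and the genotypes overlapped. Hoxa4, a gene of the cervical region, was the exception at this end of the cluster: it read 439.7 in Pdpn KO replicate 2 and 439.4 in Pdpn KO replicate 1, against 470.0 in WT replicate 2 and 426.5 in WT replicate 1. Its Pdpn KO values lay between the WT values.

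Hoxa5, which acts in the cervicothoracic skeleton and the developing lung, had the widest gap among the members. It read 604.2 in Pdpn KO replicate 2 and 1314 in Pdpn KO replicate 1, against 1187 in WT replicate 2 and 1181 in WT replicate 1. Replicate 2 was thus 2.18-fold below replicate 1 in Pdpn KO, while the WT arrays differed by 0.01 on the log2 scale. Hoxa6, its neighbour in the trunk-patterning part of the cluster, read 615.8 in Pdpn KO replicate 2 and 1176 in Pdpn KO replicate 1, against 1023 in WT replicate 2 and 1265 in WT replicate 1. Hoxa7, expressed in the trunk, read 776.8 in Pdpn KO replicate 2 and 1244 in Pdpn KO replicate 1, against 1105 in WT replicate 2 and 1212 in WT replicate 1. Across all 3 genes Pdpn KO replicate 2 was the lowest array and Pdpn KO replicate 1 lay within or above the WT values.

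Hoxa9, a regulator of blood progenitors as well as of the trunk, was high on both Pdpn KO arrays. It read 430.0 in Pdpn KO replicate 2 and 438.4 in Pdpn KO replicate 1, against 316.0 in WT replicate 2 and 358.3 in WT replicate 1, with no overlap. Hoxa10, which patterns the lumbar region and the uterus, read 606.9 in Pdpn KO replicate 2 and 404.2 in Pdpn KO replicate 1, against 320.9 in WT replicate 2 and 291.5 in WT replicate 1. Its genotypes did not overlap either, and replicate 2 was the higher Pdpn KO array. Hoxa11, required for the forearm bones, the kidney and the uterus, read 467.8 in Pdpn KO replicate 2 and 242.8 in Pdpn KO replicate 1, against 212.4 in WT replicate 2 and 224.0 in WT replicate 1. The genotypes were separated narrowly here, by Pdpn KO replicate 1, and widely by replicate 2. Hoxa13, the gene of the digits and of the hindgut and genital tubercle, read 403.5 in Pdpn KO replicate 2 and 244.6 in Pdpn KO replicate 1, against 258.7 in WT replicate 2 and 236.3 in WT replicate 1. Only replicate 2 was above both WT arrays, and the genotypes overlapped.

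The differences between the Pdpn KO arrays were large for genes of these arrays. Replicate 2 was at least 1.5-fold above replicate 1 for 3 of 10 members, against 0.765% of all genes, and at least 1.5-fold below it for 5 of 10, against 2.07% of all genes. At 2-fold, 0 of 10 members were above (0.182% of all genes) and 1 of 10, Hoxa5, was below (0.43% of all genes). Between the WT arrays, 0 of 10 members differed by 1.5-fold in either direction, against 1.83% of all genes. Hoxa10 lay just inside the 1.5-fold limit, with a difference of 0.59 on the log2 scale, and Hoxa11 just short of 2-fold, with 0.95. The largest difference between the WT arrays was that of Hoxa6, at -0.31.

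The median size of the difference between Pdpn KO arrays was 0.80 on the log2 scale over the members and 0.15 over all genes, and 98.8% of all genes had a smaller difference than the median member. Between WT arrays, that median size was 0.13 over the members and 0.15 over all genes. The difference was larger between the Pdpn KO arrays than between the WT arrays for 8 of 10 members, and for 50.3% of all genes. The exceptions were Hoxa4 (0.00 between Pdpn KO arrays and 0.14 between WT arrays) and Hoxa9 (-0.03 and -0.18). The direction followed the cluster: replicate 2 minus replicate 1 had a median of -0.90 over the 6 genes from Hoxa2 to Hoxa7 and of 0.65 over the 4 from Hoxa9 to Hoxa13, with 0.03 over all genes. Spearman's rho between cluster order and this difference was 0.72 over the 10 members, which share the same 2 arrays, and is a description only.

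**Figure D2:**
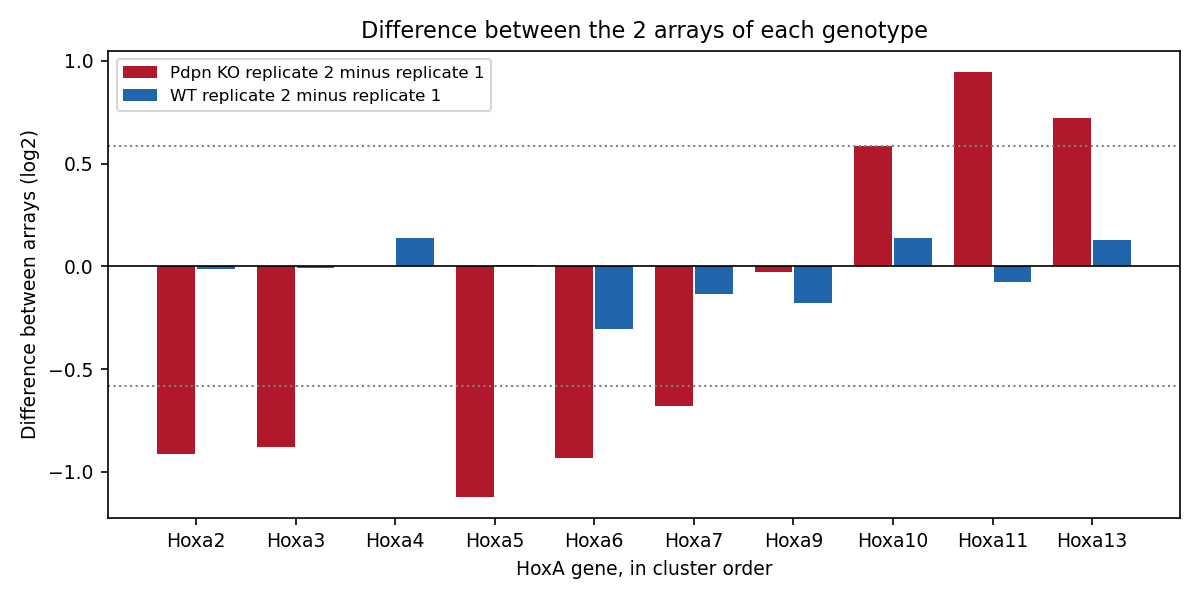
Difference between the 2 arrays of each genotype (log2, replicate 2 minus replicate 1) for each HoxA gene in cluster order, with Pdpn KO in red and WT in blue. Dotted lines mark 1.5-fold. The Pdpn KO bars pass the lower line for 5 genes from Hoxa2 to Hoxa7 and the upper line for Hoxa10, Hoxa11 and Hoxa13, and the WT bars stay within both lines.

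Over both arrays per genotype, the tail-end members averaged higher in Pdpn KO than in WT and the head-end members lower, and none of them passed the test. The log2 fold change, Pdpn KO minus WT, was 0.70 ± 0.20 for Hoxa10, 0.63 ± 0.29 for Hoxa11, 0.37 ± 0.12 for Hoxa9 and 0.35 ± 0.23 for Hoxa13 (SE, n = 2 arrays per genotype). It was -0.44 ± 0.27 for Hoxa3, -0.42 ± 0.30 for Hoxa6, -0.41 ± 0.33 for Hoxa5, -0.30 ± 0.28 for Hoxa2, -0.24 ± 0.22 for Hoxa7 and -0.03 ± 0.11 for Hoxa4. The median was 0.50 over the 4 tail-end members and -0.36 over the 6 head-end members, with 0.00 over all genes.

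In limma, 0 of 10 members passed an adjusted p of 0.05, with every adjusted p at 1.00, against 0.0101% of all genes. At an unadjusted p under 0.05 there were 2 of 10, Hoxa10 (unadjusted p = 0.0121 in limma) and Hoxa9 (unadjusted p = 0.0199), against 2.01% of all genes. Both Pdpn KO arrays were above both WT arrays for 3 of 10 members, Hoxa9, Hoxa10 and Hoxa11, against 14.6% of all genes. Both were below both WT arrays for 0 of 10, against 9.74% of all genes. The 95% interval of the fold change ran from 0.21 to 1.18 for Hoxa10 and from 0.08 to 0.66 for Hoxa9. It ran from -1.21 to 0.39 for Hoxa5, an interval that holds a decrease past 2-fold as well as an increase.

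**Figure D3:**
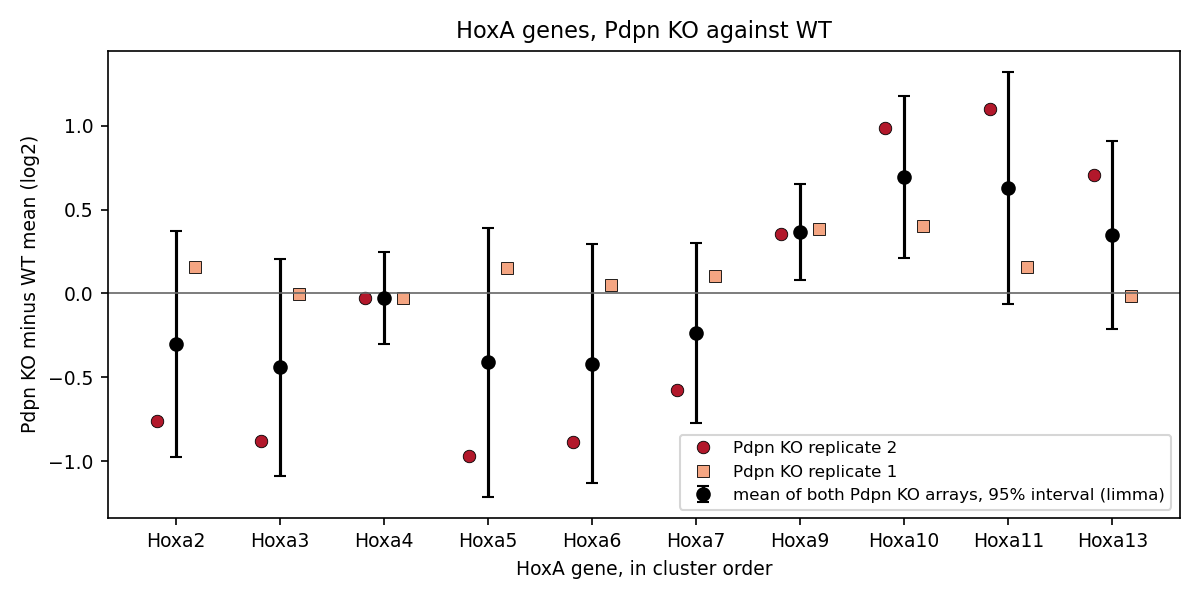
Pdpn KO minus the WT mean (log2) for each HoxA gene in cluster order. Black points with bars are the mean of both Pdpn KO arrays with its 95% interval from limma, red circles are Pdpn KO replicate 2 and orange squares are Pdpn KO replicate 1. For Hoxa9 both Pdpn KO arrays lie together at 0.35 and 0.38, while for Hoxa5 they lie at -0.97 and 0.15.

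Taken alone against both WT arrays, the Pdpn KO arrays gave different pictures of the cluster. Replicate 2 differed from the WT mean by -0.97 for Hoxa5, -0.89 for Hoxa6, -0.88 for Hoxa3, 0.99 for Hoxa10 and 1.10 for Hoxa11, and these 5 of 10 members passed the test (limma adjusted p between 0.00242 and 0.0265), against 0.506% of all genes. Hoxa2 (-0.76), Hoxa13 (0.71) and Hoxa7 (-0.58) did not pass, with limma adjusted p values of 0.0645, 0.108 and 0.32. Replicate 1 differed from the WT mean by between -0.03 and 0.40, and 0 of 10 members passed (limma adjusted p = 1.00 for each), against 0.253% of all genes. At an unadjusted p under 0.05 in that fit there were Hoxa10 (0.40, unadjusted p = 0.0382) and Hoxa9 (0.38, unadjusted p = 0.0496). Hoxa9 was thus the only member whose distance from WT was alike on both Pdpn KO arrays and away from 0, at 0.35 in replicate 2 and 0.38 in replicate 1. With a lone Pdpn KO array, the spread of a fit comes from the WT arrays and from other genes, so no test is given. For the members the WT arrays differed less than the Pdpn KO arrays did, with median sizes of 0.13 and 0.80 on the log2 scale. Since replicate 2 was also the only array with high Xist, genotype, sex pattern and culture cannot be told apart in its differences from WT.

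The other transcripts of the cluster were measured by probe sets of their own. Hoxaas2, an antisense RNA of the cluster whose probe set description also lists Hoxa3, read 176.9 in Pdpn KO replicate 2 and 296.6 in Pdpn KO replicate 1, against 231.0 in WT replicate 2 and 239.4 in WT replicate 1. Replicate 2 was the lowest array here too, by 0.75 on the log2 scale below replicate 1, and its probes may not tell the antisense RNA from Hoxa3. Mir196b, the microRNA gene between Hoxa9 and Hoxa10, read 157.5 in Pdpn KO replicate 2 and 137.5 in Pdpn KO replicate 1, against 139.2 in WT replicate 2 and 137.9 in WT replicate 1. Mir196b thus read below the lowest array median, 283.5, on every array. The array may read its precursor rather than the mature form. miR-196 microRNAs are known repressors of Hox transcripts, among them Hoxb8, which was not among the genes tested here. The mature arm is printed with its seed (bases 2 to 8) in capitals, as RefSeq gives it on GRCm38.p6.
mmu-miR-196b-5p: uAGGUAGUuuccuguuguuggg

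Outside the cluster, 6 genes that flank it were read on the same arrays. Their median between the Pdpn KO arrays was 0.03, with a range from -0.58 to 0.45. In limma's test between genotypes 0 of 6 passed, against 0.0101% of all genes. Skap2, an adaptor protein gene beside the head end, read 460.1 in Pdpn KO replicate 2 and 689.5 in Pdpn KO replicate 1, against 516.6 in WT replicate 2 and 573.5 in WT replicate 1. Evx1, the homeobox gene beside Hoxa13, read 246.1 in Pdpn KO replicate 2 and 179.6 in Pdpn KO replicate 1, against 221.0 in WT replicate 2 and 174.0 in WT replicate 1. Replicate 2 was higher than replicate 1 for Evx1 in both genotypes, by 0.45 in Pdpn KO and 0.34 in WT.

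Hox genes with the same number in different clusters are paralogues and act in overlapping regions of the body. Between the Pdpn KO arrays, replicate 2 was lower than replicate 1 for 6 of 7 measured HoxB genes of groups 1 to 8 (median -0.73) and for 4 of 4 HoxC genes of those groups (median -0.88), beside -0.90 over the 6 HoxA members. The HoxD genes of those groups went both ways, with replicate 2 lower for 2 of 4 and higher for the other 2 (median -0.06). Of these, Hoxd1, Hoxd3 and Hoxd4 read below the lowest array median, 283.5, on every array. Hoxd8 was lower in replicate 2 of both genotypes (-0.52 in Pdpn KO, -0.19 in WT). Between the WT arrays the medians of groups 1 to 8 were -0.17 for HoxB, -0.01 for HoxC, -0.05 for HoxD and -0.01 for HoxA. The HoxB median was thus below 0 in both genotypes, and further below in Pdpn KO. Hoxc5 read 810.8 in Pdpn KO replicate 2 and 1556 in Pdpn KO replicate 1, against 1246 in WT replicate 2 and 1275 in WT replicate 1. Hoxb5 read 225.2 in Pdpn KO replicate 2 and 415.2 in Pdpn KO replicate 1, against 313.9 in WT replicate 2 and 353.1 in WT replicate 1. Both were lowest in Pdpn KO replicate 2 and highest in Pdpn KO replicate 1, as Hoxa5 was. Hoxa4 differed from its paralogues in this respect: Hoxb4 (-0.80) and Hoxc4 (-0.84) were lower in replicate 2, while Hoxa4 stood at 0.00 and Hoxd4 at -0.14.

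In groups 9 to 13, replicate 2 was higher than replicate 1 for 5 of 5 HoxC genes (median 0.47) and 4 of 5 HoxD genes (median 0.27), beside 3 of 4 HoxA members (median 0.65). Of the HoxB genes, 1 of 2 was higher and the other lower in replicate 2 (median -0.18). Between the WT arrays their medians were 0.19 for HoxC, 0.06 for HoxD, 0.05 for HoxB and 0.03 for HoxA. Over all genes it was 0.02. Hoxc11 was higher in replicate 2 of both genotypes (0.69 in Pdpn KO, 0.365 in WT), as were Hoxc12 (0.47 and 0.38) and Hoxc13 (0.09 and 0.19). All of these read below the lowest array median, 283.5, on every array. Hoxc9 and Hoxc10 were lower in WT replicate 2 (-0.08 and -0.25). Hoxc10 read 418.1 in Pdpn KO replicate 2 and 81.5 in Pdpn KO replicate 1, against 172.2 in WT replicate 2 and 205.4 in WT replicate 1, so that its Pdpn KO arrays lay on either side of WT, unlike those of Hoxa10. Hoxd13 read 1534 in Pdpn KO replicate 2 and 514.5 in Pdpn KO replicate 1, against 490.7 in WT replicate 2 and 482.9 in WT replicate 1, with replicate 2 far above the other arrays, as for Hoxa11. In group 9, where Hoxa9 stood at -0.03, replicate 2 was lower than replicate 1 for Hoxb9 (-0.63) and Hoxd9 (-0.27) and higher for Hoxc9 (0.22). Hoxd9 was above both WT arrays on each Pdpn KO array, as Hoxa9 was, with 229.5 and 276.0 against 202.8 and 194.2. Both Pdpn KO arrays were above both WT arrays for 6 of 9 HoxD genes, against 14.6% of all genes. The median fold change between genotypes over the HoxD genes was 0.59. Such separation held for 0 of 9 HoxB and 0 of 9 HoxC genes. None of the 27 measured HoxB, HoxC and HoxD genes passed limma's test between genotypes, against 0.0101% of all genes. Among the paralogues Hoxd10 had the smallest unadjusted p in limma, 0.000541 (adjusted p = 0.57).

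**Figure D4:**
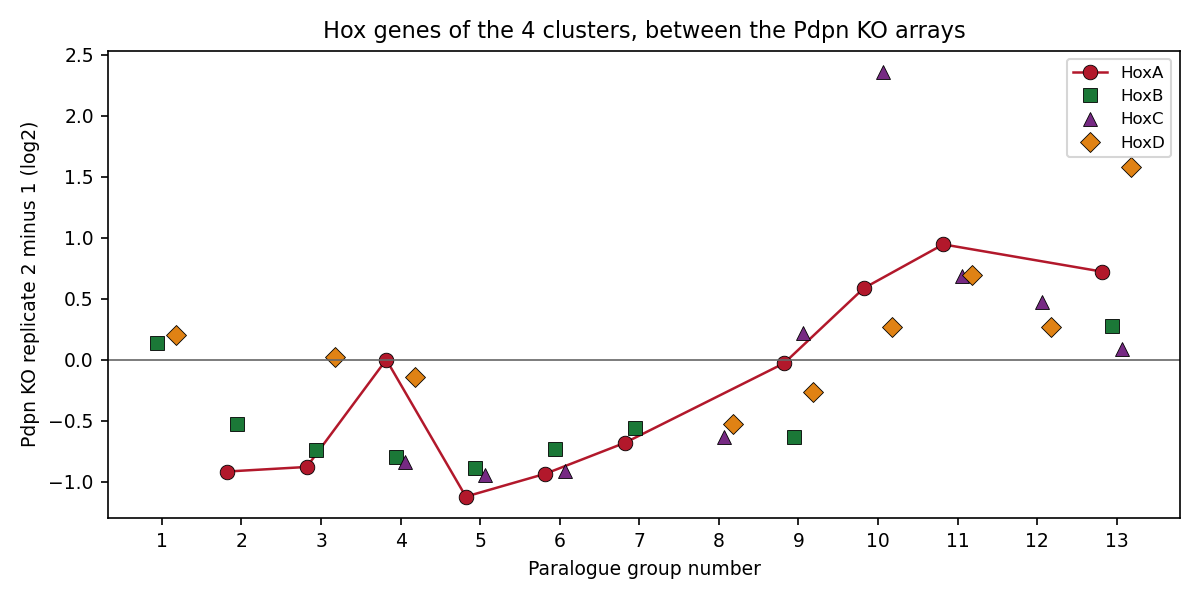
Pdpn KO replicate 2 minus replicate 1 (log2) for the measured Hox genes of the 4 clusters by paralogue group number, with 1 point per gene and a line through the HoxA members. Most points of groups 2 to 8 lie below 0 and most of groups 10 to 13 above 0, with Hoxc10 (2.36) and Hoxd13 (1.58) the highest.

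The genes whose pattern over the 4 arrays lay nearest to that of a member were found by the root mean square distance between log2 values centred on each gene's mean. Nearest to Hoxa11 were Hoxd11, its HoxD paralogue (distance 0.09), and then Socs2, a brake on cytokine signalling, Hapln1, a link protein of the hyaluronan matrix, Slco4a1, an organic anion transporter, and Angptl4, a secreted inhibitor of lipoprotein lipase. Nearest to Hoxa5 were Cpa6, a carboxypeptidase gene (distance 0.09), Hoxc6, and then Mir145a, Snora20 and Bmp5, a bone morphogenetic protein. Among the members themselves, Hoxa3 was nearest to Hoxa5 (0.09) and Hoxa10 to Hoxa11 (0.15). With 4 arrays many genes can share such a pattern, and the likeness is a description.

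Known regulators and partners of Hox genes were read from lists chosen by function. Only 0.0101% of all genes passed limma's test between genotypes, so 0 passing in this or a later list does not show unchanged genes. Of 8 measured TALE homeodomain cofactors, which bind DNA together with HOX proteins, 0 passed limma's test between genotypes and the median fold change was 0.00. Meis2, a MEIS cofactor, read 1757 in Pdpn KO replicate 2 and 2741 in Pdpn KO replicate 1, against 2563 in WT replicate 2 and 2577 in WT replicate 1. It was thus lowest in the array in which the head-end members were lowest, as was Meis1 (575.9 and 715.3 in Pdpn KO, against 715.0 and 723.9 in WT). Pknox2, another TALE gene, was highest there, with 287.5 and 202.2 in Pdpn KO, against 196.1 and 185.9 in WT.

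Chromatin regulators of Hox genes were listed too. Of 14 measured Polycomb genes, which keep Hox genes silent, 0 passed, with a median of 0.05 between genotypes and 0.01 between the Pdpn KO arrays, where they ranged from -0.35 to 0.19. Of 8 Trithorax and H3K27 demethylase genes, which counter Polycomb, 0 passed, with medians of 0.00 and 0.04. Kmt2a, the methyltransferase that maintains Hox expression, read 901.8 and 1228 in Pdpn KO, against 1103 and 1374 in WT, with replicate 2 the lower array in both genotypes. Among 12 genes of retinoic acid and caudal signalling, which set Hox domains in the embryo, 0 passed and the median was 0.05. Cyp26b1, which degrades retinoic acid, read 391.7 and 335.6 in Pdpn KO, against 321.5 and 258.6 in WT, and Rarb, a retinoic acid receptor, 214.8 and 194.1 in Pdpn KO, against 182.7 and 146.5 in WT. Both were above both WT arrays on each Pdpn KO array, with unadjusted p values in limma of 0.0708 and 0.0681 and adjusted p values of 1.00.

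Transcription factors of limb and body position were read beside the HoxA members. Of 8 such genes, 8 had a higher mean in Pdpn KO, 6 had both Pdpn KO arrays above both WT arrays (14.6% of all genes did), and 0 passed limma's test. The median fold change was 0.52, against 0.00 over all genes. That separation was wider for Tbx5, Shox2 and Tbx15 than for Hand2, Lhx9 and Tbx4. The lower Pdpn KO array and the higher WT array read 319.1 and 318.7 for Hand2, 1266 and 1237 for Lhx9, and 185.0 and 184.9 for Tbx4. Tbx4, a hindlimb factor, read 517.5 in Pdpn KO replicate 2 and 185.0 in Pdpn KO replicate 1, against 184.9 in WT replicate 2 and 165.3 in WT replicate 1. Pitx1, which acts above Tbx4 in the hindlimb, read 563.9 in Pdpn KO replicate 2 and 254.8 in Pdpn KO replicate 1, against 332.8 in WT replicate 2 and 276.1 in WT replicate 1. Both were highest in the array in which Hoxa10, Hoxa11 and Hoxa13 were highest.

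Tbx5, the forelimb factor, had another order: it read 555.0 in Pdpn KO replicate 2 and 785.8 in Pdpn KO replicate 1, against 313.5 in WT replicate 2 and 287.4 in WT replicate 1 (limma adjusted p = 0.57). Shox2, a factor of the proximal limb, read 300.1 and 278.5 in Pdpn KO, against 164.9 and 158.6 in WT (limma adjusted p = 0.46). These were high on both Pdpn KO arrays, as Hoxa9 was. The part of body region, embryo stage and sex of the embryo in the HoxA differences was not tested.

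**Figure D5:**
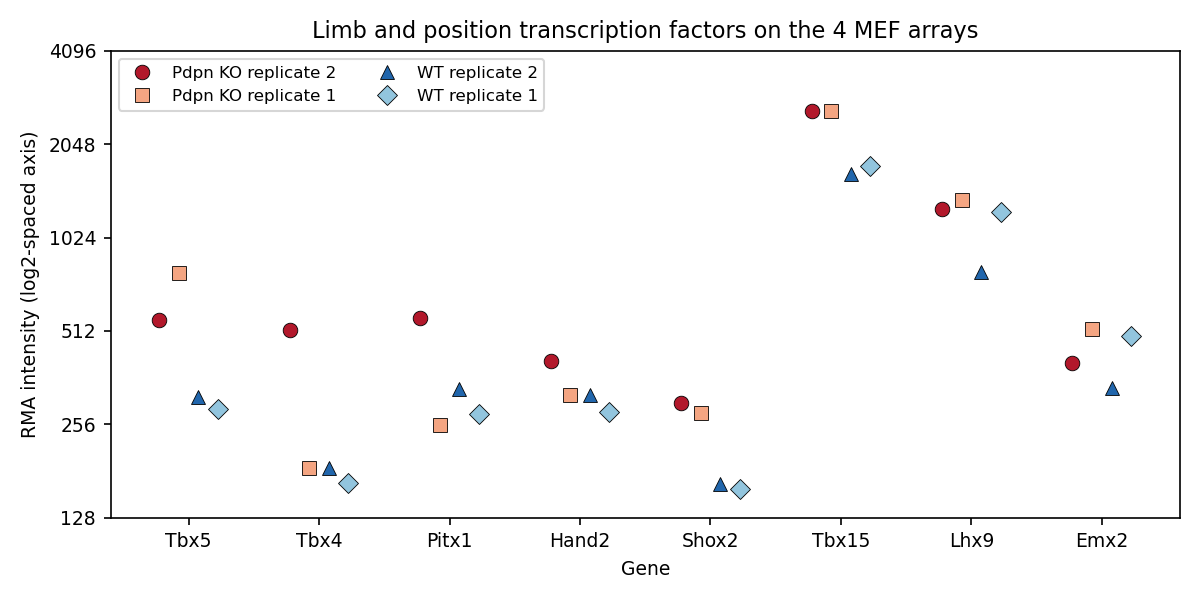
RMA intensity (log2-spaced axis) of 8 transcription factors of limb and body position, with 1 point per array: Pdpn KO replicate 2, Pdpn KO replicate 1, WT replicate 2 and WT replicate 1. Tbx4 and Pitx1 stand out in Pdpn KO replicate 2, while Tbx5 and Shox2 are above WT on both Pdpn KO arrays.

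Markers of cell types that the cultures could also hold were summed per array. The summed intensity of 8 endothelial markers was 1730 in Pdpn KO replicate 2 and 1749 in Pdpn KO replicate 1, against 1862 in WT replicate 2 and 2083 in WT replicate 1. Without Emcn, the sums of the other 7 were 1553 and 1553 in Pdpn KO, against 1511 and 1624 in WT. That of 7 measured blood markers was 1749 and 3086 in Pdpn KO, against 1552 and 2482 in WT, with replicate 1 the higher in both genotypes, most of it from Cd34. That of 7 epithelial markers was 1873 and 1679 in Pdpn KO, against 1977 and 1874 in WT. Of 5 muscle, 4 neural and 3 cartilage markers, 0 passed limma's test between genotypes. Stmn2, of the neural list, read 2597 and 2563 in Pdpn KO, against 1617 and 1768 in WT (limma unadjusted p = 0.00143, adjusted p = 0.971). Acan, of the cartilage list, read 337.1 and 162.0 in Pdpn KO, against 213.3 and 135.3 in WT, with replicate 2 the higher in both genotypes. The other cartilage markers, Sox9 and Col2a1, were slightly lower in Pdpn KO replicate 2 than in replicate 1 (-0.06 and -0.10). The part of other cell types in the HoxA values was not tested.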

How the data were processed

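Total RNA of 4 MEF cultures was read on 1-colour Affymetrix gene arrays. The authors deposited 1 linear intensity for each probe set; per the submitters' processing notes RMA produced it, by background correction, quantile normalisation and a log-scale summary over probes. Not given in the sources used here were the software, settings and genome build. RMA leaves no detection calls, and low values are compressed, so fold changes of dim genes are understated. The number of arrays limits the precision.

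Gene symbols came from GEO's platform annotation: of 24679 probe sets, 21354 had 1 symbol, 1275 several and 2050 were not listed. For 893 symbols with several probe sets the brightest was kept, which gave 19751 genes. Intensities were taken to log2 with no pseudocount or filter. Pdpn KO was compared with WT in limma 3.58.1 (R 4.3.3; lmFit on 2 groups and eBayes, a two-sided test, with Benjamini-Hochberg adjustment over the 19751 genes and a threshold of 0.05), and the same fit was rerun without each array. The spread behind its adjusted p is shared across genes; an exact permutation test has only 3 ways to divide the 4 arrays and could not pass 0.05. Differences between single arrays have no test. Promoter and microRNA sequences are RefSeq's on GRCm38.p6.

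The members, lists and tests were chosen with earlier results of these data known. The text names all members, Pdpn and sex-linked genes, Hox paralogues of a member's number, per list up to 2 genes with the smallest p and 2 with the largest difference between the Pdpn KO arrays, and the 5 genes nearest in pattern to the members with the largest difference each way. A few more genes are named only to show the limit of a count.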

Additional observations from a re-analysis of the deposited data

How the results depend on the processing

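Over all genes, limma's test between genotypes called 2 genes, 1 when the dimmer 50% of genes were left out, 9 with an intensity-dependent robust prior and 0 with no prior (limma; 613 genes at an unadjusted p under 0.05). With the replicate number as a block (replicate block) it called 34 genes and 0 of 10 members, whose adjusted p ran from 0.135 for Hoxa10 to 0.951; the labels do not say what a number shares, and across genes the differences between replicates in Pdpn KO and in WT correlated at 0.58. Leaving out 1 array called between 5 genes (WT replicate 1 left out) and 100 (Pdpn KO replicate 1 left out), with 53 when WT replicate 2 and 50 when Pdpn KO replicate 2 was left out, and between 0 and 5 members, the 5 without Pdpn KO replicate 1. The members' median fold change then ran from -0.30 to 0.13. Single members changed sign among these fits: Hoxa2 ran from -0.76 to 0.16, Hoxa4 from -0.097 to 0.043, Hoxa5 from -0.97 to 0.15, Hoxa6 from -0.89 to 0.048, Hoxa7 from -0.58 to 0.10 and Hoxa13 from -0.015 to 0.71. The cause was not tested. Under median centring and quantile normalisation all 20 member fold changes kept their direction. Under the alternatives that kept all arrays, no member that was tested passed the threshold. Hoxa2, Hoxa11 and Hoxa13 were among the dimmer 50% of genes, so the fit without those genes did not test them. The priors, the filters, the block, the other table and the probe set mean could not turn a member's sign. At 1.5-fold rather than 2-fold, 8 rather than 1 of the members differed between the Pdpn KO arrays, and under those 2 scalings 16 of 20 such differences moved by little, the other 4 being those of Hoxa4 and Hoxa9, near 0.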

Other observations

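Some genes outside the Hox clusters differed between replicate 2 and replicate 1 in both genotypes, which no HoxA member did by 1.5-fold. Aldh1a3, which makes retinoic acid, read 697.2 in Pdpn KO replicate 2 and 293.8 in Pdpn KO replicate 1, against 603.7 in WT replicate 2 and 299.5 in WT replicate 1. Cd34, a marker of blood and vascular progenitors that some fibroblasts also carry, read 829.4 in Pdpn KO replicate 2 and 1878 in Pdpn KO replicate 1, against 659.8 in WT replicate 2 and 1388 in WT replicate 1. Emcn, an endothelial sialomucin, separated the genotypes instead, with 176.9 and 196.5 in Pdpn KO, against 351.0 and 458.8 in WT (log2 fold change -1.11 ± 0.16, SE; limma adjusted p = 0.57).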
